A study of Homo sapiens with 6 samples.

Results

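On chromosomes 1 to 22 and X, 16040 ZIC2 regions were listed in wild-type or ZNF263-knockout cells. Of these, 516 were listed in both with the same start and end and were 800 bp wide or more. They were chosen by their width and their presence in both lists, and are called wide kept regions here. They came from H1 (WA01), an established line of human embryonic stem cells, and from CUT&Tag. In this assay an antibody brings a transposase to the bound protein, and the enzyme inserts sequencing adapters into the DNA nearby. The groups were wild-type H1 (2 anti-ZIC2 libraries, called WT) and H1 with a homogeneous ZNF263 knockout made with Cas9 (2 anti-ZIC2 libraries, called KO), with 1 rabbit IgG library of each genotype that was not analysed here. The deposited data are 1 list of regions per genotype, with positions on hg19 and no heights, scores or read counts, so depth is unknown, no value has a replicate error and no test between genotypes could be made.

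ZIC2 belongs to the ZIC family of zinc-finger transcription factors, whose DNA-binding domain is related to that of the GLI proteins of the hedgehog pathway. It is expressed in pluripotent stem cells and in the early neural plate, and human mutations in it cause holoprosencephaly, a failure of the forebrain to divide. ZNF263 is a zinc-finger protein with SCAN and KRAB domains that binds G-rich DNA. The question addressed is what the broadest ZIC2 regions listed in both genotypes have in common in their position and surroundings. The labels do not say whether the knockout cells are 1 clone or whether the libraries came from separate cultures. The lists hold no expression values, so the labelled cell type could not be checked against markers.

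Since these regions were selected on width and presence in both lists, those values are given as a description only. Wide kept regions were a small, broad minority of the kept regions. They were 12.6% of the 4105 regions in both lists (95% Clopper-Pearson interval 11.6 to 13.6), and they covered 501439 bp, or 24.2% of the length of all kept regions. Their median width was 927 bp (quartiles 853 and 1051 bp, highest 1667 bp). Widths fell off steadily from the limit, with 215 regions from 800 to under 900 bp, 131 from 900 to under 1000 bp, 123 from 1000 to under 1200 bp and 47 of 1200 bp or more. There was no gap at the limit itself. Just outside it lay 32 kept regions from 790 to under 800 bp, just inside it 25 from 800 to under 810 bp, and 4 regions were exactly 800 bp wide. The other 3589 kept regions, under 800 bp, are called narrower kept regions below.

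**Figure D1:**
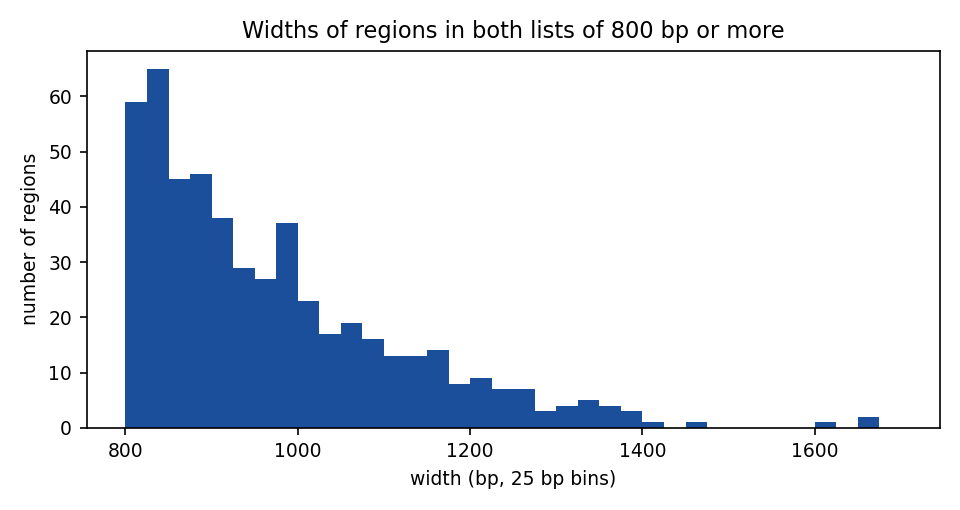
Number of wide kept regions (vertical axis) by width in bp (horizontal axis, bins of 25 bp). The counts fall from 800 bp towards the widest region of 1667 bp, and 47 of the 516 regions are 1200 bp or wider.

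The lists also held wide regions that were not kept. The WT list held 631 regions of 800 bp or more, of which 516 (81.8%, interval 78.5 to 84.7) were also in the KO list, against 31.7% of WT regions of any width. The KO list held 575 such regions, of which the same 516 (89.7%, 87.0 to 92.1) were also in the WT list, against 57.0% of KO regions of any width. The remaining 115 wide regions were listed in WT only and 59 in KO only. The rule used these lists, so nothing is read from the difference. The wide regions of 1 list had similar widths, with a median of 909 bp for those of the WT list and 925 bp for those of the KO list, and serve below as a comparison of like width.

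The widest kept regions formed a pair on chromosome 3. One lay from 32884350 to 32886016 and was 1667 bp wide, and the other lay from 32821653 to 32823310 and was 1658 bp wide. They were separated by 61039 bp, and the only region listed between them was 299 bp wide and in WT only (32857967 to 32858265). A kept region of 397 bp followed 25074 bp beyond the wider of the pair, and a region of 219 bp in KO only lay farther on (32944506 to 32944724). No other region was listed within 100 kb of either. This is a sparse setting, with 7 other regions within 500 kb of the widest region and 10 within 500 kb of the second.

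The third region in width, 1620 bp on chromosome 12 from 6960551 to 6962170, had much denser surroundings. It had 35 other regions within 500 kb, of which 11 were kept, 14 in WT only and 10 in KO only. Next came chromosome 13 from 52157644 to 52159106 (1463 bp), with its nearest region 61230 bp away, and chromosome 2 from 74781089 to 74782510 (1422 bp), which touched a kept region of 656 bp on its left side. A region on chromosome 4 from 154710993 to 154712387 (1395 bp) had a region of 248 bp in WT only at 1186 bp. On chromosome 19, the region from 39340574 to 39341959 (1386 bp) had a kept region of 760 bp at 48184 bp as its nearest neighbour.

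Several of the widest regions had a small region of 1 list close beside them. On chromosome 5 the region from 95297048 to 95298424 (1377 bp) had a KO-only region of 150 bp at a gap of 655 bp, and no other kept region within 500 kb. Chromosome 1 from 38230084 to 38231453 (1370 bp) had a WT-only region of 150 bp at 306 bp. Chromosome 1 from 11967808 to 11969176 (1369 bp) had a KO-only region of 240 bp at 488 bp. Both kinds of close neighbour thus occurred at regions of nearly equal width.

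Other members of the 20 widest stood alone at close range. On chromosome 11 the region from 129872307 to 129873658 (1352 bp) had its nearest region, in WT only and 781 bp wide, at 65448 bp, and that was the only other region within 500 kb. A region of 1362 bp on chromosome 19 (54098072 to 54099433) also had 0 other regions within 50 kb. So did regions of 1336 bp (7022428 to 7023763) and 1325 bp (41157173 to 41158497) on chromosome 1. On chromosome 8, regions of 1335 bp (101679335 to 101680669) and 1317 bp (17103566 to 17104882) had 0 as well. Unlike the region on chromosome 11, these had 6 to 17 other regions within 500 kb. The rest had nearer neighbours. Chromosome 8 from 145681542 to 145682867 (1326 bp) had 5 other regions within 50 kb, all in WT only. Chromosome 6 from 31939233 to 31940580 (1348 bp) had 1 kept region within 50 kb and 25 regions of any class within 500 kb. Chromosome 7 from 36428739 to 36430046 (1308 bp) had a WT-only region of 257 bp at 21707 bp. The region on chromosome 12 from 53894086 to 53895397 (1312 bp), lay 1118 bp from another wide kept region. Genes and DNA sequence at these positions were not analysed here, since the gene table and sequences at hand are of another genome build, GRCh38.

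Wide kept regions lay on all 23 chromosomes, and chromosome 19 held the most. Chromosome 19 is the human chromosome with the highest gene density and carries large clusters of zinc-finger genes. It held 74 of the 516 (14.3%, interval 11.4 to 17.7), against 343 of the narrower kept regions (9.56%, 8.61 to 10.6) and 6.65% of all regions. The intervals of wide and narrower kept regions did not overlap. Read the other way, 17.7% of the 417 kept regions of chromosome 19 were wide (14.2 to 21.8), against 12.0% of the kept regions on all other chromosomes (11.0 to 13.1). Wide regions of 1 list were fewer there among WT-only regions, with 7 of 115 (6.09%, 2.48 to 12.1), than among KO-only regions, with 9 of 59 (15.3%, 7.22 to 27.0), but both of these intervals overlap that of the wide kept regions. A difference between genotypes on this chromosome cannot be read from such counts.

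Chromosomes 1 and 17 came next, and there the wide and narrower kept regions had like shares. Chromosome 1 held 54 wide kept regions (10.5%, against 10.8% of narrower kept regions) and chromosome 17 held 35 (6.78%, against 7.13%). The share of kept regions that were wide was 19.7% on chromosome 18 (14 of 71, interval 11.2 to 30.9) and 18.5% on chromosome 13 (10 of 54, 9.25 to 31.4), both poor in ZIC2 regions. It was 8.63% on chromosome 14 (12 of 139, 4.54 to 14.6) and 6.38% on chromosome X (3 of 47, 1.34 to 17.5). Few regions stand behind these shares, and their intervals overlap that of the kept regions as a whole. On chromosome X, 3 of 6 wide WT regions were kept. Position towards the chromosome ends gave overlapping intervals. In the outer 5 Mb of the listed span of a chromosome lay 16.7% of them (13.6 to 20.2) and 16.1% of narrower kept regions (14.9 to 17.4).

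**Figure D2:**
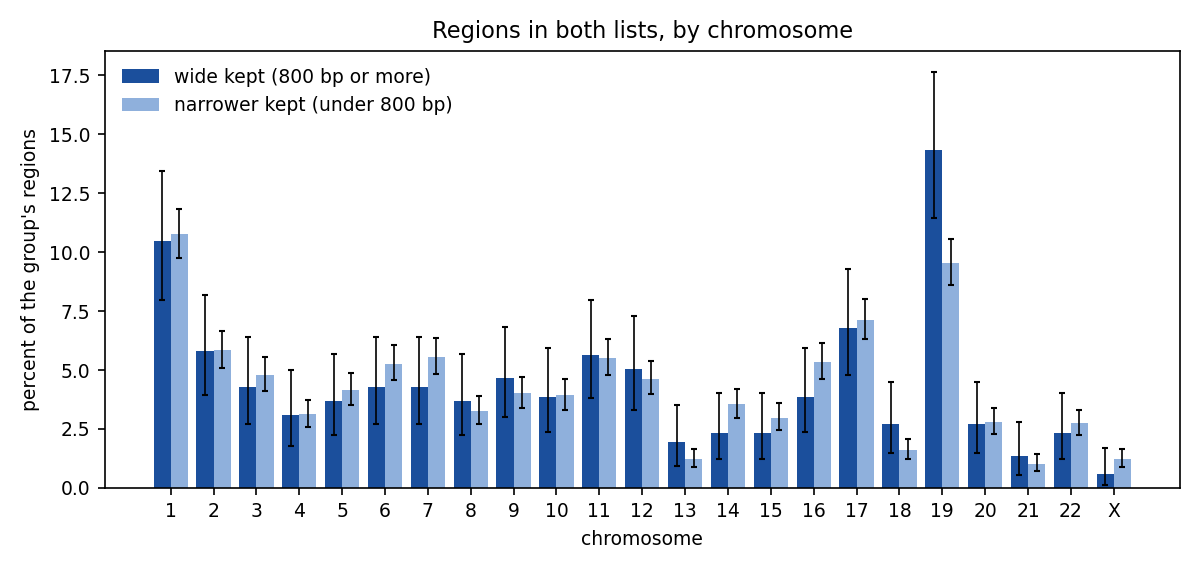
Share of wide kept (dark) and narrower kept (light) regions on each chromosome, in percent of the group's regions, with bars for the 95% Clopper-Pearson interval. Chromosome 19 holds 14.3% of the wide and 9.56% of the narrower kept regions, and chromosome 1 holds 10.5% and 10.8%.

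Wide kept regions were about as far from each other as narrower kept regions were from them. The median distance, edge to edge, from one to the next nearest wide kept region was 861 kb (95% interval of the median 651 to 1060 kb), against 929 kb (855 to 1004 kb) from a narrower kept region and 1247 kb (1208 to 1286 kb) from a region of any class. Within 500 kb, 40.3% of wide kept regions had another (36.0 to 44.7), against 36.8% of narrower kept regions (35.2 to 38.4) and 30.6% of all regions (29.9 to 31.3). At 50 kb it was 34 of the 516 (6.59%, 4.61 to 9.09), against 7.69% of narrower kept regions (6.84 to 8.61) and 5.54% of all regions (5.19 to 5.90). Wide kept regions thus had the lower share of the first 2 groups there, with overlapping intervals. Kept regions of any width were nearer, at a median of 83.1 kb (67.1 to 97.7 kb), which is close to the 80.0 kb (73.7 to 85.2 kb) from a narrower kept region. Wide WT-only regions lay at a median of 101 kb from a kept region (69.5 to 182 kb) and wide KO-only regions at 53.3 kb (25.0 to 119 kb). The intervals for wide and narrower kept regions overlapped, and a difference in the distance to the next kept region was not tested.

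Fewer wide than narrower kept regions had a WT-only region nearby. The intervals were apart within 5 kb and overlapped within 1 and 50 kb. The median distance to the nearest WT-only region was 55.3 kb for wide kept regions (46.8 to 63.9 kb) and 46.5 kb for narrower ones (43.7 to 49.5 kb), with overlapping intervals. Within 5 kb, 54 wide kept regions (10.5%, 7.96 to 13.4) had a WT-only region, against 15.4% of the narrower ones (14.2 to 16.6), and these intervals did not overlap. Over all regions the share was 13.9% (13.3 to 14.4), which overlaps that of the wide kept regions. Within 1 kb the shares of wide and narrower kept regions were 6.01% (4.12 to 8.42) and 8.58% (7.69 to 9.55), and within 50 kb they were 46.9% (42.5 to 51.3) and 51.8% (50.2 to 53.5), all with overlapping intervals. Between 5 and 50 kb the shares also differed, with 21.7% against 30.1% at about 20 kb, where no interval was computed. The lower quartile of the distance was 24.7 kb for wide and 13.3 kb for narrower kept regions. For KO-only regions the medians were 127 kb and 135 kb, and the shares within 5 kb were 9.11% (6.77 to 11.9) and 8.02% (7.16 to 8.96). From a wide WT-only region, the nearest KO-only region was farther, at a median of 227 kb (169 to 258 kb).

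**Figure D3:**
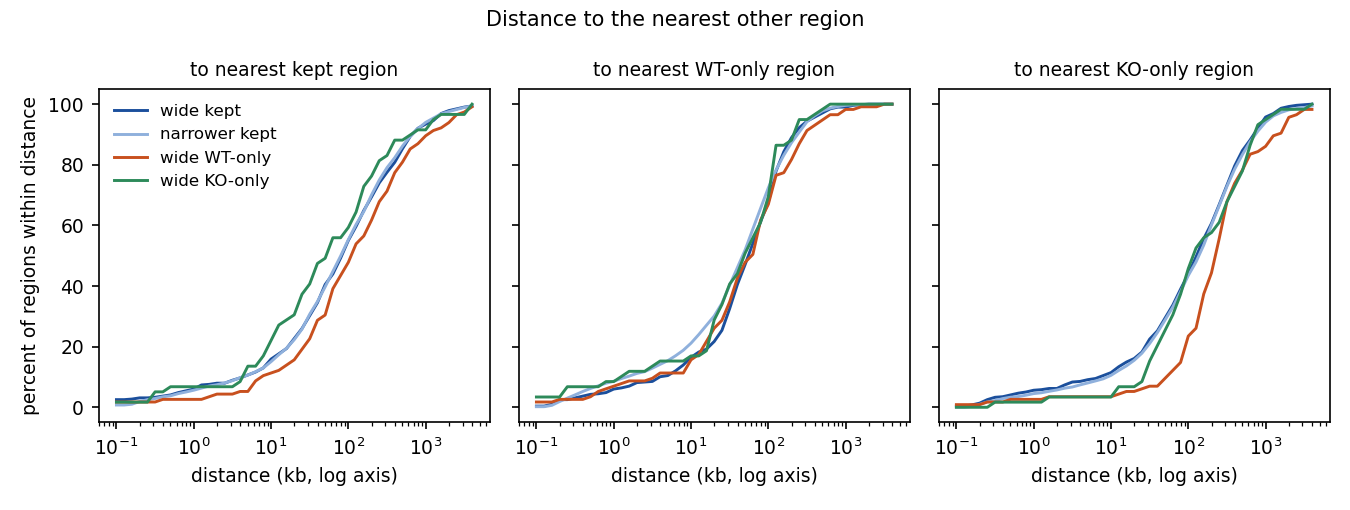
Percent of regions (vertical axis) that have another region within the distance in kb on the horizontal axis (log axis), for the nearest kept, WT-only and KO-only region in the left, middle and right panel. Wide and narrower kept regions run together for kept and KO-only neighbours, and wide WT-only regions lie farthest from KO-only regions, with a median of 227 kb.

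The nearest region of any class was kept for 165 of the 516 (32.0%), WT-only for 232 (45.0%) and KO-only for 119 (23.1%). In the whole series these classes made up 25.6%, 55.1% and 19.3% of regions. The shares were not computed for narrower kept regions, so the difference cannot be assigned to wide kept regions in particular. The median distance to a kept region was 83.1 kb for wide kept, 80.0 kb for narrower kept and 122 kb for all regions. Of the 516, 153 (29.7%) had no other region within 50 kb and 7 had none within 500 kb. The share with another region within 50 kb was 70.3% (66.2 to 74.3). It was 73.7% for narrower kept regions (72.2 to 75.1) and 64.9% for all regions (64.1 to 65.6). None within 500 kb was found for 24 of 3589 narrower kept and 334 of 16040 regions. The most isolated wide kept region was one of 946 bp on chromosome 13 from 82448801 to 82449746. Its nearest neighbour of any kind, 732 bp wide, lay 1515 kb away. Next was a region of 1182 bp on chromosome 3 from 143689849 to 143691030, at 963 kb from its nearest neighbour. Other regions of the lists were more isolated still, at up to 4818 kb from their nearest neighbour. The 4 most crowded wide kept regions lay on chromosome 19 between 45970408 and 46274386, and each had 49 to 53 other regions within 500 kb, in nearly equal parts kept, WT-only and KO-only. The region from 45970408 to 45971312 (905 bp), for example, had 18 kept, 19 WT-only and 16 KO-only regions around it.

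Close to wide kept regions, regions of 1 list were KO-only and WT-only in nearly equal numbers. Within 5 kb of a wide kept region lay 51 KO-only and 59 WT-only regions, so 46.4% were KO-only (interval 36.8 to 56.1). Among all 11935 regions of 1 list the KO-only percentage was 26.0. Around narrower kept regions it was 32.2% within 5 kb (29.1 to 35.4, 280 KO-only and 589 WT-only), and the intervals of wide and narrower kept regions did not overlap. Only 20 of these neighbours lay within 5 kb of both kinds. Per 100 regions, WT-only neighbours within 5 kb numbered 11.4 for wide (8.70 to 14.7) and 16.4 for narrower kept regions (15.1 to 17.8). KO-only neighbours numbered 9.88 (7.36 to 13.0) and 7.80 (6.91 to 8.77), with overlapping intervals. The higher KO-only percentage thus went with fewer WT-only neighbours. The overlap for KO-only neighbours neither shows nor excludes an excess of them. The window fixed for the KO-only percentage was 50 kb, where it was 32.7% (28.9 to 36.7) for wide and 29.5% (27.9 to 31.1) for narrower kept regions. Those intervals overlapped. A 5 kb window was set as a second choice, and it is put first because the difference was seen there.

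The KO-only percentage was highest in the nearest rings around wide kept regions. It was 48.4% up to 1 kb (30 of 62, interval 35.5 to 61.4) and 43.8% from 1 to 5 kb (21 of 48, 29.5 to 58.8). From 5 to 20 kb it was 30.2% (22.3 to 39.0), from 20 to 50 kb 29.2% (24.5 to 34.4), and beyond 500 kb 24.96% (24.05 to 25.9). The intervals up to 1 kb and from 1 to 5 kb overlap that from 5 to 20 kb. Rings were not computed around narrower kept regions. In whole windows around those, the percentage also rose with nearness, from 27.0% within 500 kb (26.1 to 27.9) to 33.6% within 1 kb (29.4 to 38.1).

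The KO-only percentage was higher in both width classes above 800 bp than in the 3 classes below it. Within 5 kb of kept regions from 150 to under 300 bp, 34.5% of regions of 1 list were KO-only (29.0 to 40.3), from 300 to under 500 bp 31.3% (26.3 to 36.8) and from 500 to under 800 bp 33.0% (27.7 to 38.6). From 800 to under 1000 bp the value was 45.3% (33.8 to 57.3) and for 1000 bp or more 47.2% (30.4 to 64.5). These last intervals are broad and overlap those of the narrower classes. Around wide regions of 1 list few neighbours stand behind the value, with 4 of 20 neighbours KO-only within 5 kb of wide WT-only regions (20.0%, 5.73 to 43.7) and 2 of 11 near wide KO-only regions (18.2%, 2.28 to 51.8). Within 50 kb of wide WT-only regions it was 14.7% (8.63 to 22.7), an interval that does not overlap the 28.9 to 36.7 of wide kept regions, but within 50 kb of wide KO-only regions it was 30.0% (19.6 to 42.1), which does. Without chromosome 19 the value within 5 kb of wide kept regions was 46.9%, and with any 1 chromosome left out it ranged from 44.8% to 48.5%. When regions within 1 kb were first joined it was 38.5% (23.4 to 55.4). Joining removes the neighbours within 1 kb, and no joined value was computed for narrower kept regions. The interval overlapped their unjoined one, 29.1 to 35.4. With regions of 150 bp left out, the value near wide kept regions was 41.3% (30.1 to 53.3). It was 30.0% (26.2 to 33.9) near narrower kept regions under that setting, and these intervals overlapped.

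**Figure D4:**
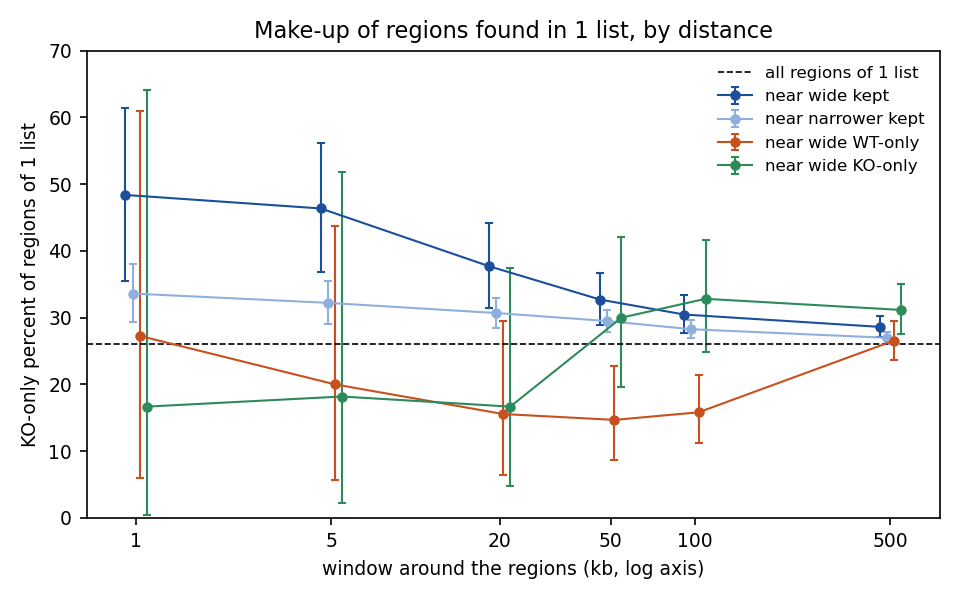
KO-only percent of the regions found in 1 list (vertical axis) within windows of 1 to 500 kb (horizontal axis, log) around 4 groups of regions, with 95% Clopper-Pearson intervals and small sideways shifts for legibility. The dashed line is the 26.0% of all regions of 1 list. Values near wide kept regions start at 48.4% and come down to 28.6% at 500 kb. The percentage alone does not separate more KO-only regions from fewer WT-only regions.

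Most wide kept regions had no region of 1 list close by, a share that was not computed for narrower kept or all regions. Such neighbours were also uncommon around narrower kept regions. Within 5 kb, 15.4% of those had a WT-only and 8.02% a KO-only region, against 10.5% and 9.11% of wide kept regions. Of the wide kept regions, 49 had WT-only neighbours alone within 5 kb, 42 KO-only neighbours alone, 5 had both and 420 (81.4%) had neither. Median widths of these wide kept regions were 927, 922.5, 993 and 929 bp, all close to the 927 bp of the whole group except for the 5 regions with both. The neighbours themselves were small, with a median of 202 bp where WT-only and 196 bp where KO-only, against 181 bp and 167 bp farther away. Of the WT-only neighbours 25.4% had the smallest width of the lists, 150 bp, and of the KO-only neighbours 39.2%, against 39.7% and 44.0% farther away.

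At the closest range, 62 regions of 1 list lay within 1 kb of 58 wide kept regions. Of these, 4 touched the wide region, 27 lay at gaps from 150 to under 300 bp, 31 from 300 to 1000 bp and 0 at shorter gaps above 0. The touching ones were both WT-only and KO-only. On chromosome 19 a WT-only region of 865 bp (41283128 to 41283992) ran into a wide kept region of 1101 bp (41283993 to 41285093), and on chromosome 9 a WT-only region of 892 bp (99382667 to 99383558) adjoined one of 810 bp (99381857 to 99382666). Also on chromosome 9, KO-only regions of 728 bp (6007925 to 6008652) and 515 bp (129439633 to 129440147) adjoined wide kept regions of 969 bp and 1040 bp. A stretch in both lists and a stretch in 1 list were thus recorded side by side without a gap.

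The next nearest were small regions at gaps of 152 to 159 bp. KO-only regions of 295 bp on chromosome 1 (26231980 to 26232274) and of 203 bp on chromosome 12 (55076747 to 55076949) each lay 152 bp from a wide kept region, of 908 bp and 985 bp. WT-only regions lay at 153 bp on chromosome 15 (65099358 to 65099507) and chromosome 9 (98314646 to 98314847), at 158 bp on chromosome 10 (131909779 to 131909928) and at 159 bp on chromosome 1 (162114691 to 162114840). The wide kept region with most such neighbours was the one on chromosome 15 from 65099661 to 65100686 (1026 bp). It had WT-only regions at 153 bp and 383 bp and KO-only regions at 1565 bp and 2208 bp, and no kept region within 5 kb. On chromosome 19 the region from 1940242 to 1941197 (956 bp) had 3 WT-only neighbours and 0 KO-only neighbours within 5 kb. On chromosome 14 the region from 77427764 to 77428628 (865 bp) had 2 KO-only neighbours and 0 WT-only neighbours. The last 2 regions, and the isolated and crowded examples above, were chosen after their values were seen.

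Wide kept regions within 100 kb of each other formed 33 runs with 70 members (13.6% of the 516), of which 30 runs were pairs. Chromosome 19 held 11 runs with 26 members, including all 3 runs of more than 2. The longest ran from 50979162 to 51162582 (183 kb) and had 4 members, of 1023, 1205, 1001 and 1251 bp. Between them only 1 other region was listed, a KO-only region of 152 bp (51041113 to 51041264). The run from 48903020 to 49005712 (103 kb) had 3 members with 2 kept and 1 KO-only region between them, and the run from 6393117 to 6476952 (83.8 kb) had 3 members with 1 kept region between them.

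In the 33 runs together, 17 kept, 22 WT-only and 9 KO-only regions lay between the members, and 12 runs had nothing between them. The pair on chromosome 12 from 6862257 to 6962170, which includes the region of 1620 bp, enclosed most, with 3 kept, 3 WT-only and 1 KO-only region. On chromosome 19, the pair from 54931397 to 54976157 enclosed 4 WT-only regions and the pair from 1021089 to 1082904 enclosed 3 WT-only and 1 KO-only region. The closest pair, on chromosome 11, touched, with 1 region from 95522169 to 95523040 (872 bp) and the other from 95523041 to 95524129 (1089 bp). Next in closeness were the pairs on chromosome 12 from 53892074 to 53895397, with a gap of 1118 bp, and on chromosome 2 from 24299148 to 24307727, with a gap of 6730 bp and nothing between.

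**Figure D5:**
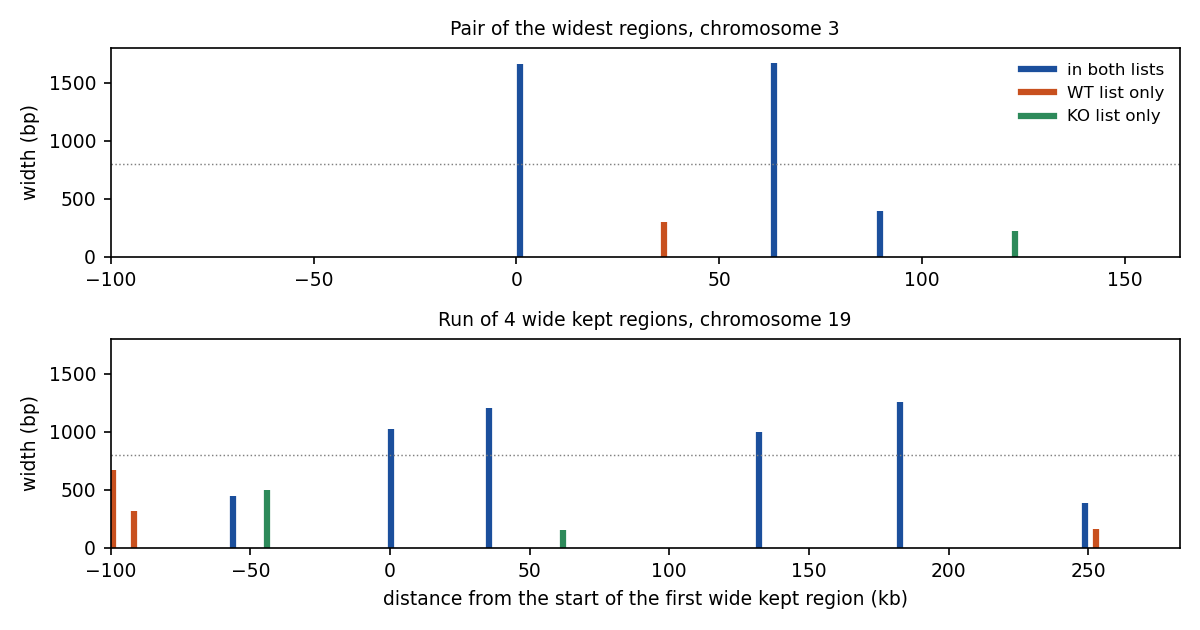
Every listed region around the pair of the widest regions on chromosome 3 (top) and the run of 4 wide kept regions on chromosome 19 (bottom), as bars at the distance in kb from the start of the first wide kept region, with the width in bp as height. Bars are wider than the regions for legibility, the dotted line is 800 bp, and 1 region of 1 list lies between the members in each stretch.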

How the data were processed

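ZIC2 CUT&Tag libraries of wild-type and ZNF263-knockout H1 cells (2 each) stand behind 2 deposited lists of regions, in which the columns hold chromosome, start and end and no other value. The submitters' processing notes name Bowtie2, Picard and the build hg19. Not given in the sources used here are the peak caller, its threshold, the use of the IgG libraries and how replicates were combined. Regions of both lists have identical edges, so a width is 1 value for both genotypes.

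Lists were joined on identical chromosome, start and end with Python 3.11.15 and pandas 2.3.3, and width is end minus start. Distances are edge to edge and coordinates count from 1. Shares have exact Clopper-Pearson 95% intervals, and medians have intervals from order statistics (scipy 1.17.1, numpy 2.4.6). They hold for counting error alone and count neighbouring regions as if independent. No test with replicates was possible. Overlap of 2 intervals is given as a description and does not show that the values are equal. Code was tested on simulated lists. Named are the 20 widest regions, the runs within 100 kb (those of 3 or more members, the closest and those with most regions between) and the 10 with the nearest region of 1 list. The members, and all that is described, were chosen with earlier results of these data known. Other settings tried concerned the width limit, windows, joining, autosomes and chromosome 19. Genes and sequence were planned only for a reference of hg19 and were not analysed here.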

Additional observations from a re-analysis of the deposited data

Results flagged for a closer look

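Outside chromosomes 1 to 22 and X, on contigs which the comparisons do not use, 8 further regions of 800 bp or more were in both lists. They were 8 of the 15 kept regions on such contigs (53.3%, interval 26.6 to 78.7), against 12.6% on the chromosomes analysed. The contig Un_gl000220, which carries ribosomal RNA gene sequence, held 3, the widest from 6839 to 8340 (1502 bp). On 17_gl000205_random, 2 touching regions of 1000 bp each ran from 85128 to 86127 and from 86128 to 87127, and on 7_gl000195_random regions of 1339 bp and 1000 bp also touched. The part played by repeated sequence was not tested.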

How the results depend on the processing

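Counting only regions above 800 bp left 512, and any overlap of at least 1 bp gave 516, as identical edges did. Chromosome 19 held between 12.2% and 16.5% of wide kept regions with limits of 600 and 1000 bp or with regions within 1 kb joined, within the interval of the main value of 14.3%. The median distance to the nearest region of any class was 25.1 kb (20.2 to 28.3), and 31.4 kb with regions within 1 kb joined, since joining removes the nearest neighbours. The KO-only percent of regions of 1 list within 50 kb was 32.7, and it was 46.4 within 5 kb, 37.7 within 20 kb and 28.6 within 500 kb. Width limits, joining, leaving out chromosome 19 or leaving out regions of 150 bp left the 50 kb value within its interval. The same alternatives for the 5 kb window were chosen after seeing the data and gave 38.5 to 47.2. Among them, limits of 600 bp (39.0) and regions wider than 150 bp (41.3, 30.1 to 53.3) lay lower. With the latter, the interval overlapped that of narrower kept regions under the same setting (26.2 to 33.9). With joining, it overlapped only their unjoined interval, since no joined value was computed for narrower kept regions. Intervals with limits of 600 bp (33.1 to 45.0) and 1000 bp (30.4 to 64.5) also overlapped the 29.1 to 35.4 around narrower kept regions. That last interval is for kept regions under 800 bp and was not recomputed for either limit. With the limit of 600 bp, kept regions from 600 to under 800 bp were in both groups, so that overlap decides nothing. Without chromosome 19 the intervals stayed apart, at 36.8 to 57.3 for wide and 27.6 to 34.4 for narrower kept regions. No paired analysis was possible because 1 list stands for both libraries of a genotype. Leaving out a replicate was impossible too. Genes and sequence, with their settings, were not run. Depth is unknown, so an unlisted region cannot be told from a weak one.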

Other observations

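Touching regions change which locus is the widest. Of the 516 wide kept regions, 17 touched another listed region, against 36 of the 3589 narrower kept regions. Wherever touching regions were joined, 38 joined stretches resulted, and 16 of them held a wide kept region. The widest stretch of the series was then on chromosome 2 from 74780433 to 74782510 (2078 bp), made of 2 kept regions of 656 bp and 1422 bp, and the single region of 1667 bp on chromosome 3 was no longer the widest. Other joined stretches with a wide kept region measured 1966 bp (chromosome 19, 41283128 to 41285093) and 1961 bp (chromosome 11, 95522169 to 95524129). With such joining, 532 stretches that hold a kept region were 800 bp wide or more, of which 17 held no wide kept region. How the border between touching regions was set was not tested.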
